A study of Mus musculus with 7 samples.

Results

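The DNA replication machinery was followed here as 43 genes whose products license, unwind, copy and seal the genome or supply it with nucleotides. Members were the rows of the deposited table that carry these 43 symbols, of 48440 rows in all, and each of the 43 was among the 16251 genes tested. The libraries came from LSK cells (lineage-negative, Sca1 and cKit positive), the fraction of bone marrow (BM) in which hematopoietic stem cells (HSCs) and multipotent progenitors are found. BM of wild-type donors, or of donors in which PROSER1 had been constitutively deleted with an endonuclease (PROSER1 KO), was transplanted into C57BL/6 recipients that had received 9.5 Gy in a pair of equal doses, and polyA RNA of the sorted LSK cells was sequenced at day 77. There were 4 wild-type and 3 PROSER1 KO libraries, labelled as biological replicates. All 7 therefore share irradiation, transplantation and the chimeric marrow, and no gate against residual recipient cells, donor age or pooling of animals is given for these libraries in the sources used here, so that p-values measure the spread between the labelled replicates.

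A replication origin is licensed in G1, when the origin recognition complex (ORC) together with CDC6 and CDT1 loads the MCM2-7 helicase onto DNA, and geminin holds CDT1 back afterwards. In S phase, CDC45 and the GINS complex turn the loaded MCM ring into an active helicase, RPA covers the single strands, primase and the DNA polymerases copy them, and PCNA, placed by its loader RFC, keeps the polymerases on the template. Most of these genes are E2F targets whose mRNA rises in cycling cells, whereas most HSCs are quiescent and the multipotent progenitors of the LSK gate divide more often. In sorted bulk RNA, fewer cells in cycle and less mRNA per cell cannot be told apart.

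The libraries held 33143619 to 45140743 read pairs on genes, at which 3 read pairs correspond to normalized counts of 2.54 to 3.48 (counting error only), far below every member. Normalized counts, the authors' counts divided by 1 size factor per library, are the unit of every level below. Proser1 mRNA was not lower in the PROSER1 KO group (wild-type 2019, 2153, 2103 and 2077, PROSER1 KO 2464, 2359 and 2338, log2 fold change 0.19, adjusted p = 0.204), so that the direction of every comparison rests on the labels. Kit and Ly6a, which encode cKit and Sca1, were present in every library, and the summed level of 10 LSK and stem cell markers was 111873 to 125356 in wild-type and 112036 to 115985 in PROSER1 KO libraries. Cd34, Kit and Flt3 made up most of this sum, so that it says little about rarer stem cells. Of the 10 genes, 4 had a log2 fold change above 0 and 6 below. Mecom was lower in each PROSER1 KO library than in wild-type (-0.25, adjusted p = 0.282), and Slamf1 had 0.28 (adjusted p = 0.559). Of 8 markers each, the sums were 3675 to 5448 in wild-type and 2896 to 6103 in PROSER1 KO libraries for T cells, 974 to 1761 in wild-type and 1264 to 1975 in PROSER1 KO libraries for erythroid cells and 24748 to 28929.6 in wild-type and 22525 to 27802 in PROSER1 KO libraries for granulocytes and monocytes, where Alas2 and Ly6g had means under 10. Mpo (14897 to 19269) and Prtn3 (5015 to 6287) made up most of the granulocyte and monocyte sum, and Il7r and Lck most of the T cell sum. These sums therefore say little about the other genes of their lists. S100a8 ran from 160 to 1047 and S100a9 from 214 to 1138 over all libraries. The T cell sum was highest in PROSER1 KO replicate 1, as were Cd3d, Cd3e, Cd3g, Cd8a and Lck. Cd3g was 697 there and 21 to 53 in the other libraries, and Cd3e was 197 against 5.7 to 24. Il7r and Trac were highest in wild-type replicate 1 and Cd4 in wild-type replicate 4. Cd4 was lower in each PROSER1 KO library (113 to 191) than in wild-type (200 to 287, adjusted p = 0.374).

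No replication gene passed the test between wild-type and PROSER1 KO LSK cells. With limma across all genes, 0 of 43 members reached an adjusted p under 0.05 with a fold change above 1.5. This call was made for 42 genes or 0.258% of all genes tested. At that share, 0 calls among the 43 members or within a role do not set them apart from other genes. On the recovered read pairs, edgeR and DESeq2 also called 0 members, of 40 and 165 genes called in all, where DESeq2 was run on all 48440 rows. At an unadjusted p under 0.05, 0 members were higher and 0 were lower in PROSER1 KO, where 5% and 4.74% of all genes were. The lowest adjusted p of a member was 0.522, that of Cdc6. Log2 fold changes, given throughout as PROSER1 KO minus wild-type on the log2(normalized count + 1) scale, ran from -0.098 for Pold2 to 0.17 for Cdc6.

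Intervals were narrow for each member. The 95% interval of the fold change lay within 1.5-fold in either direction for 43 of 43 members, which was the case for 65.7% of all genes tested. The genes tested include means down to 10, whereas Orc1, the lowest member, had a wild-type mean of 512. The interval also lay within 1.5-fold for 100% of the genes in each of the 4 further lists described below, so that it does not set the members apart. The outermost bounds of members were 0.808-fold for Orc1 and 1.29-fold for Gins3. These intervals are per gene and are not adjusted for the number of members. Replicates of a group differed by a median SD of 0.11 on the log2 scale for the members and 0.13 for all genes tested. In the plot of fold changes with their intervals, every role straddles 0.

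**Figure D1:**
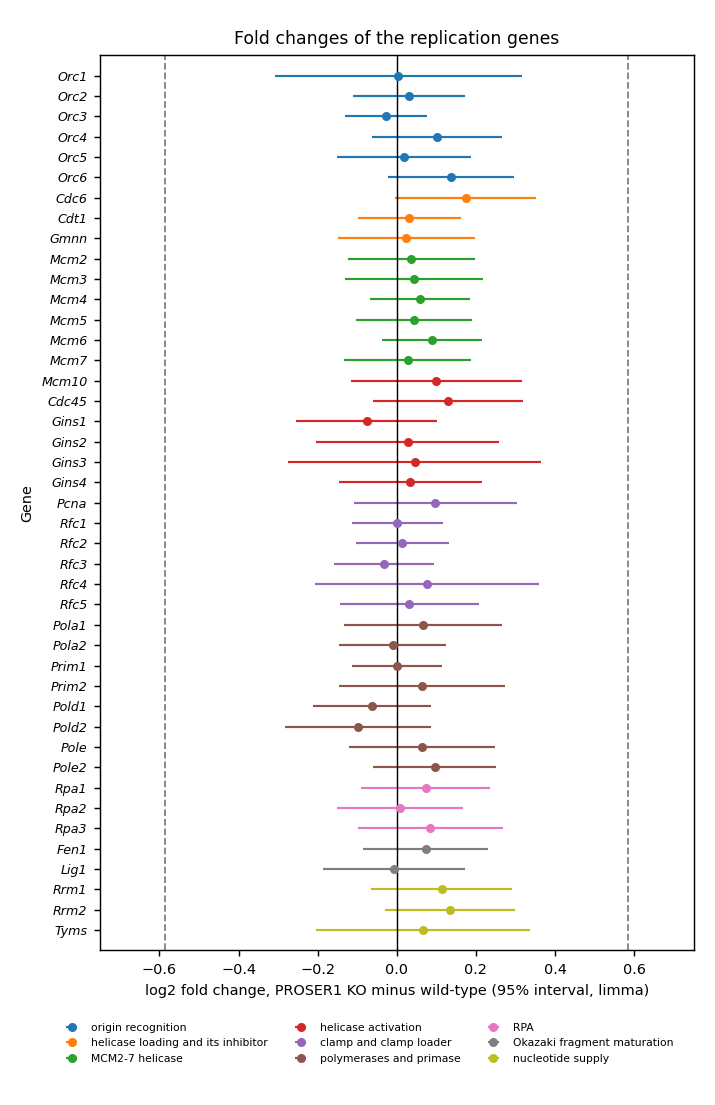
Log2 fold changes (PROSER1 KO minus wild-type, x axis) of the 43 replication genes (y axis), coloured by role, with the 95% intervals of limma as bars and dashed lines at 1.5-fold in either direction. All 43 intervals lie between the dashed lines, and points range from -0.098 (Pold2) to 0.17 (Cdc6).

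Most members nevertheless lay slightly to the same side. The log2 fold change was above 0 for 36 of 43 members (83.7%), compared with 50.6% of all genes, and its median was 0.043 against 0.0015 for all genes. The 7 members below 0 were Orc3, Gins1, Rfc3, Pola2, Pold1, Pold2 and Lig1. This count rested on single libraries. It was 22 without wild-type replicate 4, 18 without PROSER1 KO replicate 2 and 9 without both, and the median log2 fold change was then 0.0023, -0.02 and -0.057. The omission of both was chosen after seeing the data.

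Libraries of the same genotype differed more than the genotypes did. In wild-type replicate 4, 27 of 43 members (62.8%) had their lowest value of the 7 libraries, as did 16.5% of all genes tested, and in PROSER1 KO replicate 2, 28 members (65.1%) had their highest, as did 16.8% of all genes. Relative to each gene's mean over 7 libraries, the median member stood at -0.022, 0.035, 0.056 and -0.13 on the log2 scale in the wild-type libraries, in replicate order, and at -0.054, 0.15 and -0.0092 in the PROSER1 KO libraries. Values of both genotypes thus interleaved. The pooled SD of these medians within groups was 0.094, larger than the median log2 fold change of 0.043. The same median over all genes tested stayed between 0.0015 and 0.0044 in each library. Division by size factors holds that median near 0 in advance, so that it is no benchmark for the members. The MCM2-7 genes moved as a block, with all 6 lowest in wild-type replicate 4 (-0.21 to -0.12) and all 6 highest in PROSER1 KO replicate 2 (0.11 to 0.16).

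**Figure D2:**
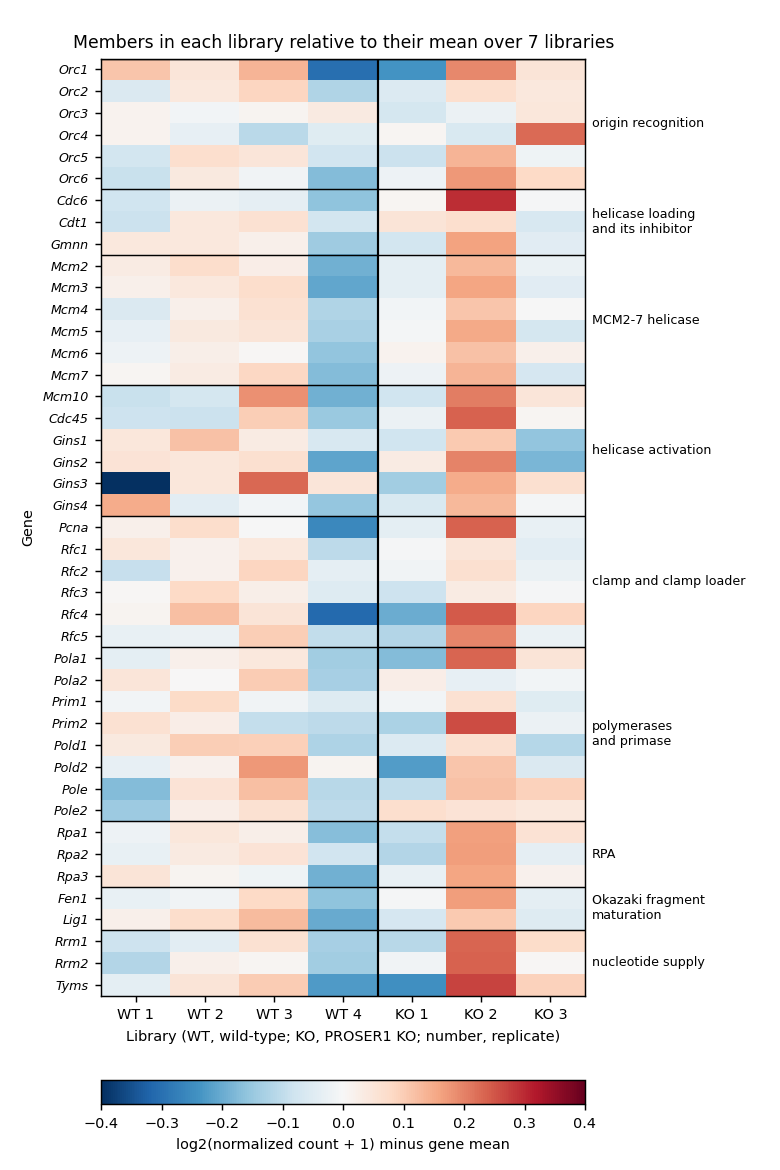
Each member (rows, grouped by role) in each library (columns) as log2(normalized count + 1) minus the gene's mean over the 7 libraries, blue below and red above the mean. The column of wild-type replicate 4 is mostly blue (40 of 43 members below their mean) and that of PROSER1 KO replicate 2 mostly red (40 of 43 above).

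The plasma cell markers also differed between these libraries. Their summed level, mostly that of Jchain, the joining chain of secreted antibodies, was 296259, 244355, 172205 and 432130.4 in the 4 wild-type libraries (replicates 1 to 4) and 223674, 201084 and 300831 in the 3 PROSER1 KO libraries (replicates 1 to 3). It was highest in wild-type replicate 4, where the members were lowest, and lowest in wild-type replicate 3, while PROSER1 KO replicate 2 had the second lowest sum and the highest member levels. The order was not kept throughout, since PROSER1 KO replicate 1 had a lower sum than replicate 3 together with lower member levels. The part of plasma cell RNA in the differences between libraries was not tested. The summed level of 8 B-lineage markers was 3842 to 6721 in wild-type and 4113 to 7944 in PROSER1 KO libraries, highest in PROSER1 KO replicate 1.

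Mitotic genes, a list of 12 such as the Aurora kinases, were read over the same libraries. Their median deviation was -0.16, -0.13, 0.14 and -0.13 in the wild-type libraries and -0.11, 0.24 and 0.17 in the PROSER1 KO libraries, in replicate order. Wild-type replicate 3 and PROSER1 KO replicates 2 and 3 had all 12 genes above their means, and the other 4 libraries had none. Both lists were highest in PROSER1 KO replicate 2 and low in wild-type replicate 4, and their medians had opposite signs in wild-type replicate 2 and PROSER1 KO replicate 3. Of the 12 mitotic genes, 12 had a log2 fold change above 0 (median 0.18), as 50.6% of all genes did. PROSER1 KO replicate 2 was the highest library for 10 of the 12 (83.3%), as it was for 16.8% of all genes. At an unadjusted p under 0.05, 1 mitotic gene was higher, where 5% of all genes were. None of the 12 was called, where 0.258% of all genes were.

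**Figure D3:**
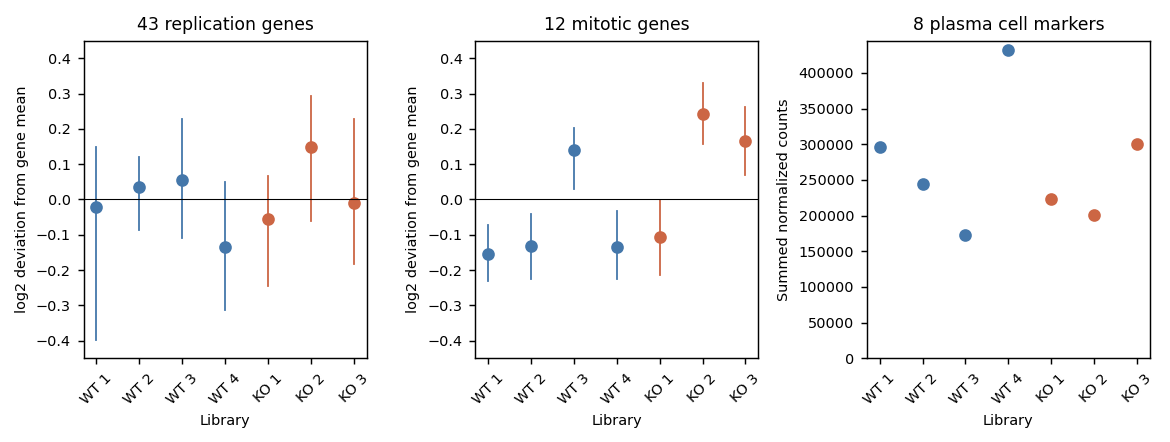
Median (points) and range over genes (lines) of the log2 deviation from each gene's mean, by library, for 43 replication genes (left) and 12 mitotic genes (middle), and the summed normalized count of 8 plasma cell markers (right), wild-type in blue and PROSER1 KO in orange. Replication genes are lowest in wild-type replicate 4 (-0.13), where the plasma cell sum is highest (432130.4), and highest in PROSER1 KO replicate 2 (0.15).

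Promoter sequence was examined as a feature that the choice of members did not use. RefSeq promoters (GRCm38.p6, 250 bases before to 50 bases after the start) were matched for 35 of 43 members. An E2F motif (TTTCCCGC, TTTGGCGC, TTTCGCGC or TTTGCCGC on either strand, where sites may overlap) was present in 14 of 35 members (40.0%), compared with 2.6% of all 27025 genes with a promoter and 4.6% of the tested ones. In the bases before the start alone it was present in 9 of 35 members (25.7%), compared with 2.2% and 3.9%. The CCAAT letters were found in 65.7% of members and 41.1% of all genes. Shown here, 5′ to 3′ along the gene's strand with E2F motifs in capitals, are those stretches before the start that hold a motif and overlap no exon annotated in GENCODE M21. They belong to Cdc6, the member with the lowest p-value, Mcm5, Mcm6 and Pola1.
Cdc6: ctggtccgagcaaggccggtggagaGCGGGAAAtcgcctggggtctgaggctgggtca
Mcm5: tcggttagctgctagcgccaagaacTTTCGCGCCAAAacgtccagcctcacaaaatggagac
Mcm6: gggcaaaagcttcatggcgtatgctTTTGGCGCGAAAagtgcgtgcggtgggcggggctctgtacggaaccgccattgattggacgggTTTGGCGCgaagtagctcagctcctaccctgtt
Pola1: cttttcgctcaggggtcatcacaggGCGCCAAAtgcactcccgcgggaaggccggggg
They lie at chr11:98907988-98908045 (plus strand, within an intron of a longer annotated transcript), chr8:75109331-75109392 (plus), chr1:128359720-128359840 (minus) and chrX:93632261-93632318 (minus). Mcm5 and Mcm6, which both encode subunits of the helicase ring, share a pair of overlapping motifs, written in Mcm5 as the reverse complement of the first run of capitals in Mcm6. The median log2 fold change was 0.037 over the 14 with and 0.073 over the 21 without a motif, and 8 of 14 and 15 of 21 were lowest in wild-type replicate 4. In PROSER1 KO replicate 2, 8 of 14 and 16 of 21 were highest. The highest library was a median of 1.23 times the lowest with and 1.26 times without a motif. A part of the motif in the differences between libraries was not tested.

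The 6 ORC genes, whose products mark origins, included none that passed the test. They spanned a wide range of levels, from Orc6 at 659.9 ± 52.0 normalized counts per kb of exon (SD over 7 libraries) to Orc1 at 148 ± 18.7, with Orc2 (585 ± 31.2), Orc3 (509 ± 13.6), Orc4 (265 ± 21.0) and Orc5 (173 ± 10.4) between them. Ranges over libraries overlapped for the neighbours Orc6 and Orc2 and for Orc5 and Orc1. Per kb of coding sequence, the order was Orc6, Orc4, Orc3, Orc2, Orc5 and Orc1, with the same ends. Orc6, the smallest subunit (chr8:85299632-85308278, GRCm38), had normalized counts of 1529, 1670.4, 1609 and 1439.8 in the 4 wild-type libraries (replicates 1 to 4) and 1603, 1835 and 1719 in the 3 PROSER1 KO libraries (replicates 1 to 3). PROSER1 KO replicates 2 and 3 were above the wild-type libraries and replicate 1 was among them, with a log2 fold change of 0.14 (SE 0.071, adjusted p = 0.569). Orc1, the subunit whose protein is degraded after licensing (chr4:108579423-108614833), was measured at 550.0, 527, 559.8 and 413 (wild-type) and 432, 582 and 528 (PROSER1 KO). Wild-type replicate 4 and PROSER1 KO replicate 1 were both low, and the fit gave a log2 fold change of 0.0038 (SE 0.14, adjusted p = 0.997). The core subunit gene Orc2 had 2165, 2319, 2392 and 2075 (wild-type) and 2169, 2363 and 2321 (PROSER1 KO) and a log2 fold change of 0.031 (SE 0.063, adjusted p = 0.921), and its groups overlapped. Values for Orc4, also of the core, were 1991, 1927, 1826 and 1904 (wild-type) and 1981, 1889 and 2307 (PROSER1 KO), where only PROSER1 KO replicate 3 stood above the rest, with a log2 fold change of 0.10 (SE 0.073, adjusted p = 0.697). The remaining core genes varied little, Orc3 between 2951 and 3195 and Orc5 between 1000.4 and 1167 over all libraries. Of the exon bases of Orc2, 29.8% overlap Nif3l1 on the other strand, and the strand setting of the counting is not given.

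Among the loading factors, Cdc6 was the member nearest to a difference. CDC6, the ATPase that brings MCM2-7 to ORC (chr11:98907801-98923940), had normalized counts of 1885, 1962, 1945 and 1783 in the 4 wild-type libraries (replicates 1 to 4) and 2004, 2445 and 1986 in the 3 PROSER1 KO libraries (replicates 1 to 3). All 3 PROSER1 KO libraries lay above the 4 wild-type ones, by a wide margin in replicate 2 alone, and Cdc6 was the single member whose groups did not overlap in this direction, an arrangement found for 5.17% of all genes (0 members lay fully below wild-type, as 4.83% of all genes did). It gave a log2 fold change of 0.17 (SE 0.079, adjusted p = 0.522), at an unadjusted p of 0.0548. Without PROSER1 KO replicate 2 the log2 fold change was 0.076. Cdt1, whose product carries the MCM ring to the origin, had 3326, 3633, 3685 and 3355 (wild-type) and 3655, 3699.6 and 3378 (PROSER1 KO), interleaved between groups, with a log2 fold change of 0.032 (SE 0.057, adjusted p = 0.906). For Gmnn, which encodes the CDT1 inhibitor geminin, levels were 1519, 1521, 1498 and 1337 (wild-type) and 1402, 1651 and 1431 (PROSER1 KO), with a log2 fold change of 0.023 (SE 0.077, adjusted p = 0.953). Wild-type replicate 4 was the lowest and PROSER1 KO replicate 2 the highest of these. The balance of licensing factor and inhibitor was also compared within libraries, where the size factor cancels. The log2 ratio of Cdt1 to Gmnn was 1.25 ± 0.087 (SD, n = 4) in wild-type and 1.26 ± 0.11 (SD, n = 3) in PROSER1 KO, a difference of 0.0087 (two-sided exact permutation test over 35 arrangements, p = 0.943, adjusted p = 0.943 over 3 ratios). The smallest p this design allows is 0.0286.

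All 6 MCM2-7 genes, which encode the replicative helicase, were strongly expressed and none passed the test. Their log2 fold changes were 0.037 (Mcm2), 0.043 (Mcm3), 0.058 (Mcm4), 0.043 (Mcm5), 0.088 (Mcm6) and 0.027 (Mcm7), each with an interval within -0.13 and 0.22. Mcm6 (chr1:128331590-128359664) had normalized counts of 20491, 21110.4, 20857 and 18609.8 in the 4 wild-type libraries (replicates 1 to 4) and 20981, 22548 and 21076 in the 3 PROSER1 KO libraries (replicates 1 to 3), with a log2 fold change of 0.088 (SE 0.056, adjusted p = 0.654). Mcm2 (chr6:88883474-88898780) had 10905, 11175, 10839 and 9329.8 (wild-type) and 10363, 11641 and 10463 (PROSER1 KO), with a log2 fold change of 0.037 (SE 0.071, adjusted p = 0.915). In both genes the lowest value was wild-type replicate 4 and the highest PROSER1 KO replicate 2, with the other 5 libraries close together. The ring holds 1 copy of each subunit, but the mRNA levels per kb of exon were unequal. Mcm6 led with 4460.0 ± 250.0, followed by Mcm7 (3339.8 ± 230.0), Mcm3 (3319.6 ± 256), Mcm5 (2987 ± 191), Mcm4 (2341 ± 123) and Mcm2 (1534 ± 105), where the ranges over libraries overlapped between Mcm7 and Mcm3 and between Mcm3 and Mcm5. Per kb of coding sequence Mcm6 was again first, while Mcm5 (5416 ± 346) stood before Mcm3 (5113 ± 395) and Mcm4 and Mcm2 exchanged places at the end (3235 ± 170.0 and 3850.5 ± 264). Normalized counts of the other subunits ran from 10767 to 13846 (Mcm3), 7715 to 9069.5 (Mcm4), 10870.5 to 13221 (Mcm5) and 13089 to 16195 (Mcm7).

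Helicase activation genes were expressed at lower levels than the helicase itself, and 0 of 6 passed the test. Cdc45, the activator that joins MCM2-7 (chr16:18780447-18811987), had normalized counts of 1335, 1331, 1515 and 1276 in the 4 wild-type libraries (replicates 1 to 4) and 1393, 1667 and 1421 in the 3 PROSER1 KO libraries (replicates 1 to 3). Its groups overlapped through wild-type replicate 3, with a log2 fold change of 0.13 (SE 0.084, adjusted p = 0.665). Of the 4 GINS subunits, Gins4 was the most abundant per kb of exon (1078 ± 80.3) and Gins3 the least (249 ± 33.7), with Gins1 (685 ± 48.3) and Gins2 (289.6 ± 28.7) between them and the ranges of Gins2 and Gins3 overlapping. Per kb of coding sequence Gins2 (2138 ± 212) stood next to Gins4 (2173 ± 162), with ranges that overlapped, and Gins3 was again the lowest. Gins4 had 1608, 1408, 1439 and 1304 (wild-type) and 1389.5, 1587 and 1441 (PROSER1 KO) and a log2 fold change of 0.034 (SE 0.081, adjusted p = 0.933). Gins3 had 507, 689, 783 and 691 (wild-type) and 607, 741 and 699 (PROSER1 KO) and a log2 fold change of 0.045 (SE 0.14, adjusted p = 0.951), and its values were the most scattered of all members, 1.54-fold between wild-type replicates 1 and 3. Gins1 (928 to 1124, log2 fold change -0.077), Gins2 (1021 to 1356, 0.027) and Mcm10 (1697 to 2237, 0.10), whose product helps the helicase to start, also overlapped between groups. Gins2 shares 67.3% of its exon bases with Gse1 on the other strand.

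Pcna, the sliding clamp (chr2:132249162-132253314), had the highest level per kb of exon of all 43 members (4829 ± 488). Its normalized counts were 11707, 12116, 11531 and 9653 in the 4 wild-type libraries (replicates 1 to 4) and 11232, 13582 and 11304 in the 3 PROSER1 KO libraries (replicates 1 to 3). Wild-type replicate 4 was the lowest and PROSER1 KO replicate 2 the highest, with the rest within a narrow band and a log2 fold change of 0.097 (SE 0.092, adjusted p = 0.779). A processed pseudogene, Pcna-ps2, matches its transcript at 99.2% identity and had a mean of 117 normalized counts beside 11589 for Pcna, so that a small share of these reads is uncertain. The 5 clamp loader genes were at lower levels, from Rfc2 (1180.5 ± 50.3 per kb) through Rfc1 (967 ± 37.1), Rfc4 (849.7 ± 110.0) and Rfc5 (676 ± 53.2) to Rfc3 (449 ± 16.7), and Rfc4 overlapped with both of its neighbours. Per kb of coding sequence the order was Rfc2 (6596 ± 281), Rfc5 (2898 ± 228), Rfc1 (1684 ± 64.6), Rfc3 (1516 ± 56.5) and Rfc4 (1053 ± 136), with Rfc4 at the low end in place of Rfc3. Rfc3 had 1623, 1711, 1645 and 1563 (wild-type) and 1528, 1654 and 1613 (PROSER1 KO), interleaved, with a log2 fold change of -0.033 (SE 0.056, adjusted p = 0.902). Over all libraries Rfc1, the large subunit, ran from 5408 to 6014, Rfc2 from 6978 to 7891, Rfc4 from 1041 to 1534 and Rfc5 from 2905 to 3605, with log2 fold changes of 0.0015, 0.014, 0.077 and 0.031.

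Of the 8 polymerase and primase genes, 5 had a log2 fold change above and 3 below 0, and none passed the test. Per kb of exon, the polymerase delta genes Pold2 (1433 ± 125) and Pold1 (1432 ± 94.4) were highest, with ranges that overlapped, and the primase subunit gene Prim2 was lowest (246 ± 23.9). By coding length both ends were other genes, Prim1 highest (2376 ± 84.1) and Pole2 lowest (685 ± 40.4). Pold2, the accessory subunit (chr11:5872180-5878292), had normalized counts of 2644, 2741, 3055 and 2727 in the 4 wild-type libraries (replicates 1 to 4) and 2320.0, 2925 and 2602 in the 3 PROSER1 KO libraries (replicates 1 to 3). The groups overlapped, and the largest negative value of any member was found here, with a log2 fold change of -0.098 (SE 0.082, adjusted p = 0.741). Prim2 (chr1:33453810-33669795) had 1516, 1481, 1361 and 1353 (wild-type) and 1330.0, 1741 and 1431 (PROSER1 KO), high in PROSER1 KO replicate 2 alone, with a log2 fold change of 0.064 (SE 0.093, adjusted p = 0.879). Pole2, a subunit of the leading-strand polymerase epsilon (chr12:69201773-69228195), was measured at 979, 1102, 1128 and 1005 (wild-type) and 1134, 1124 and 1114 (PROSER1 KO). The 3 PROSER1 KO values were nearly equal and wild-type replicate 3 lay among them, with a log2 fold change of 0.096 (SE 0.069, adjusted p = 0.697). The catalytic genes Pola1 (4241 to 5620.4, log2 fold change 0.067), Pold1 (6375 to 7431, -0.062), Pole (4691 to 5757, 0.064) and Prim1 (2875 to 3141, 0.00047), and the polymerase alpha subunit gene Pola2 (3015 to 3547, -0.010), overlapped between groups.

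**Figure D4:**
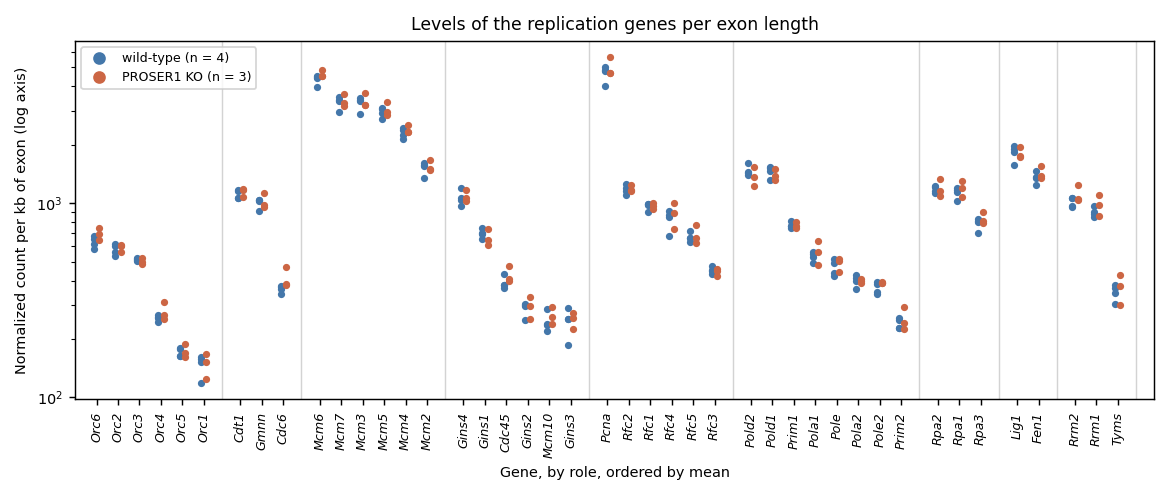
Normalized counts per kb of exon (log axis) of each member in each library, by role and ordered by mean within a role, with wild-type libraries in blue and PROSER1 KO libraries in orange. Pcna (mean 4829) and Mcm6 (4460.0) are highest and Orc1 (148) lowest, and the spread between genes exceeds that between genotypes.

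RPA, which shields single-stranded DNA, is built from 3 subunits, and 0 of the 3 genes passed the test. Rpa2 (chr4:132768332-132778752) and Rpa1 overlapped in their ranges per kb of exon (1188 ± 79.9 and 1158 ± 87.2), and Rpa3 was lower (807 ± 58.2). By coding length, Rpa2 (4382 ± 295) lay above Rpa1 (3345 ± 252) without overlap, and Rpa3 was again the lowest (2525 ± 182). Rpa2 had normalized counts of 3478, 3634, 3687 and 3364 (wild-type) and 3268, 3986 and 3460.1 (PROSER1 KO), with a log2 fold change of 0.0083 (SE 0.070, adjusted p = 0.982). Rpa3 (chr6:8255936-8259173) had 947, 922, 905 and 799.9 (wild-type) and 895, 1021 and 926 (PROSER1 KO), with a log2 fold change of 0.085 (SE 0.082, adjusted p = 0.785). Rpa1, the DNA-binding subunit, ran from 5728 to 7225 (log2 fold change 0.073), and PROSER1 KO replicate 2 was the highest library for each of the 3 genes.

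Okazaki fragments are trimmed by FEN1 and joined by LIG1, and neither gene passed the test. Lig1 (chr7:13277283-13311433, 1811 ± 142 per kb of exon) had normalized counts of 7816, 8084, 8411 and 6704 (wild-type) and 7353, 8294 and 7439 (PROSER1 KO), with a log2 fold change of -0.0079 (SE 0.080, adjusted p = 0.986). Fen1 (chr19:10199132-10204169, 1386 ± 98.8 per kb) had 3284, 3315, 3539 and 2997 (wild-type) and 3340.2, 3762 and 3263 (PROSER1 KO), with a log2 fold change of 0.073 (SE 0.070, adjusted p = 0.784). Wild-type replicate 4 was the lowest library for both, and an antisense gene overlaps 78.8% of the exon bases of Fen1 but had a mean of only 13.7.

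Nucleotide supply showed the highest median log2 fold change of a role with 3 or more members (0.11), again with 0 of 3 genes past the test. This median rested on single libraries: the log2 fold changes without PROSER1 KO replicate 2 were 0.054 (Rrm2), 0.029 (Rrm1) and -0.049 (Tyms), and without PROSER1 KO replicate 1 they were 0.18 (Rrm2), 0.20 (Rrm1) and 0.21 (Tyms). Ribonucleotide reductase makes deoxynucleotides from a large subunit, Rrm1, and an S phase subunit, Rrm2. Rrm2 (chr12:24708241-24714146) had normalized counts of 2692, 2958, 2932 and 2647 in the 4 wild-type libraries (replicates 1 to 4) and 2892, 3435 and 2928 in the 3 PROSER1 KO libraries (replicates 1 to 3), with a log2 fold change of 0.13 (SE 0.073, adjusted p = 0.591). Rrm1 (chr7:102441695-102469771) had 9708, 9978, 10721 and 9372 (wild-type) and 9514, 12077 and 10799 (PROSER1 KO), with a log2 fold change of 0.11 (SE 0.079, adjusted p = 0.69). PROSER1 KO replicate 2 was the highest library for both. For Rrm2 the other two PROSER1 KO libraries lay within the wild-type range, and for Rrm1 replicate 1 lay within it and replicate 3 just above it. Tyms, the enzyme for thymidylate (chr5:30058202-30073617), had 2097, 2231, 2309 and 1839 (wild-type) and 1815, 2595 and 2294 (PROSER1 KO), the groups overlapped, and the fit gave a log2 fold change of 0.066 (SE 0.12, adjusted p = 0.908). Within libraries, the log2 ratio of Rrm2 to Rrm1 was -1.82 ± 0.051 (SD, n = 4) in wild-type and -1.80 ± 0.083 (SD, n = 3) in PROSER1 KO, a difference of 0.02 (two-sided exact permutation test, p = 0.686, adjusted p = 0.943). The log2 ratio of the S phase regulated Orc1 to Orc2 was -2.13 ± 0.15 (SD, n = 4) and -2.16 ± 0.15 (SD, n = 3), a difference of -0.027 (two-sided exact permutation test, p = 0.771, adjusted p = 0.943). Leaving out wild-type replicate 1 or PROSER1 KO replicate 1 reversed the sign of the ratio differences of Cdt1 to Gmnn and of Orc1 to Orc2. The difference of Rrm2 to Rrm1 also reversed, to -0.024, without PROSER1 KO replicate 1. Per kb of exon, Rrm2 (1056 ± 92.5) and Rrm1 (936 ± 87.1) overlapped in their ranges over libraries, and Tyms was lower (356 ± 45.5). Per kb of coding sequence the order was Rrm1 (4201 ± 391), Rrm2 (2339 ± 205) and Tyms (2079 ± 266), so that the order of both reductase subunits depends on the length used.

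Genes that work beside the members were read from 4 further lists, and none was called, where 0.258% of all genes were. Of 29 further fork and origin genes, 19 (65.5%) had a log2 fold change above 0 (median 0.026), as 50.6% of all genes did. At an unadjusted p under 0.05, 0 were higher and 1 was lower, against 5% and 4.74% of all genes. This was Rnaseh2b, a subunit of the nuclease that removes ribonucleotides from DNA, with 1735, 1830.0, 1807 and 1658 (wild-type) and 1304, 1594 and 1320.1 (PROSER1 KO). All 3 PROSER1 KO libraries lay below the lowest wild-type one. The fit gave a log2 fold change of -0.33 (SE 0.079, adjusted p = 0.191), so that the difference did not survive adjustment over all genes. Next in p-value was the polymerase delta subunit gene Pold3 (3849, 4080.0, 3815 and 3817 (wild-type) and 4227, 4017 and 4283 (PROSER1 KO)), whose groups overlapped, with a log2 fold change of 0.10 (SE 0.047, adjusted p = 0.527). Among 9 further nucleotide supply genes 4 (44.4%) lay above 0 (median -0.012), and 0 passed an unadjusted p of 0.05 in either direction. Dtymk, which encodes thymidylate kinase, had 5483, 6183, 5837 and 5309 (wild-type) and 5881, 6208 and 6177 (PROSER1 KO), with a log2 fold change of 0.096 (adjusted p = 0.632), and its groups overlapped.

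Regulators that act upstream of S phase were higher in a few cases without passing adjustment. Of 19 kinase, ligase adaptor and E2F genes, 15 (78.9%) had a log2 fold change above 0 (median 0.086), as 50.6% of all genes did. At an unadjusted p under 0.05, 4 were higher and 0 lower, against 5% and 4.74% of all genes. PROSER1 KO replicate 2 was the highest library for 12 of the 19 (63.2%), as it was for 16.8% of all genes. In 3 genes every PROSER1 KO library lay above wild-type, as in 5.17% of all genes. In 1 gene, E2f5 (log2 fold change -0.20, adjusted p = 0.524), every PROSER1 KO library lay below, as in 4.83% of all genes. E2f2, an activating E2F factor, had 892, 923, 908 and 827 (wild-type) and 1117, 1039 and 1045 (PROSER1 KO). The groups did not overlap, with a log2 fold change of 0.27 (SE 0.067, adjusted p = 0.204). Skp2, the adaptor that sends the CDK inhibitor p27 to degradation, had 1036, 1239, 1078 and 1076 (wild-type) and 1211, 1443 and 1367 (PROSER1 KO), where PROSER1 KO replicate 1 lay below wild-type replicate 2, with a log2 fold change of 0.28 (SE 0.085, adjusted p = 0.322). In the mitotic list the lowest p-values were those of Aurka (1019, 1113, 1169 and 988 (wild-type) and 1111, 1397 and 1264 (PROSER1 KO), log2 fold change 0.23, adjusted p = 0.46) and Aurkb (1989.6, 1987, 2526 and 2132 (wild-type) and 2278, 2753 and 2391 (PROSER1 KO), 0.20, adjusted p = 0.543). The difference between these lists and the members was not tested.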

How the data were processed

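Polyadenylated RNA of LSK cells was sequenced from 4 wild-type and 3 PROSER1 KO samples, which were grouped by label. Read pairs had been trimmed (Trimmomatic), aligned to mm10 (STAR) and counted per gene (featureCounts) by the authors, who deposited a normalized signal, that is counts divided by a DESeq2 size factor. Versions are not given in the sources used here. The header of the gene column names GENCODE M10, another release than the study's methods do, and the strand setting is not given for this directional kit. Whole read pairs were recovered (100% of values within 0.01), and 0 columns were left unused. Library depth was 33143619 to 45140743 read pairs, and replicates differed by more than counting noise (chi-square divided by its degrees of freedom 30.1 to 94.7).

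The groups were compared with limma 3.58.1 (R 4.3.3, trended eBayes) after log2 transformation with a pseudocount of 1. The 16251 genes tested had mean values of 10 or more, and 685 rows of the whole table lack a symbol. A gene was called when its p-value, adjusted by Benjamini-Hochberg, was under 0.05 and its fold change exceeded 1.5. All adjusted p-values and standard errors of fold changes are those of limma. Ratios of 2 members were compared by exact permutation (scipy 1.17.1). Other settings tried were a pseudocount of 0.1 or 10, a minimum mean of 50 or none, robust or untrended eBayes, quantile and TMM scaling, edgeR 4.0.16 and DESeq2 1.42.0 on read pairs, no fold minimum, a replicate block, each library left out, coding in place of exon length, and motifs before the start only. Procedures were tested on simulated data.

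Positions and lengths come from GENCODE M21 (GRCm38), near-identical copies from blastn 2.17.0 (at least 90% identity over 50% of the coding length) and promoters from RefSeq (GRCm38.p6). Members, further lists and marker lists were chosen with earlier results of these data known. Full values are given for the 8 members with the lowest p-values, the members of the ratios and the highest and lowest gene per kb of each role, and for the 2 lowest p-values of each further list. A gene that this rule names in the nucleotide supply list is not reported here. Processed pseudogenes with near-identical sequence exist for Cdc6, Gmnn, Mcm4, Mcm7, Pcna, Rfc5, Rpa3 and Tyms, so that some reads of these genes are uncertain.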

Additional observations from a re-analysis of the deposited data

Results flagged for a closer look

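Wild-type replicate 4 stood apart from the other 3 wild-type libraries in 2 of 46 values examined with Dixon's test for a single distant sample. Gmnn, the geminin gene, had a normalized count of 1337 there and 1498 to 1521 in the others, so that the gap took up 0.875 of the range. Gins2 had 1021 there and 1218 to 1236 in the others, a gap of 0.917 of the range. Chance alone puts about 1 in 20 such groups past this limit, and both genes were low in the library in which most members were low.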

How the results depend on the processing

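No member was called under any of 20 alternatives, with lowest adjusted p-values of a member between 0.351 and 0.708, and 36 of 43 members had a log2 fold change above 0 under each change of pseudocount, filter, scaling, variance estimate or tool. The count of members above 0 moved only with the libraries: 18 to 37 with 1 library left out (22 without wild-type replicate 4, 18 without PROSER1 KO replicate 2), 9 without both, an omission chosen after seeing the data, and 22 with the replicate block. The median over members ran from -0.057 (without both) to 0.0798. At an unadjusted p under 0.05, Cdc6 was the 1 member higher without a filter on low values, with robust variance estimates and with DESeq2. With libraries left out 0 to 4 members were higher (Cdc6, Orc6, Pola1 and Rrm1 without PROSER1 KO replicate 1) and 0 to 4 lower (Gins1, Lig1, Pold1 and Pold2 without both). Over all genes tested, 17 were called without a variance trend and 80 with robust variance estimates, against 42. DESeq2, run on all 48440 rows without the filter on low values, called 165. With 1 library left out 23 to 42 were called, and 9 without both. Highest over lowest subunit per kb was 2.58 (MCM2-7), 8.78 (ORC), 6.35 (RFC) and 2.22 (GINS) per coding length, against 2.91, 4.51, 2.63 and 4.45 per exon length. The E2F motif was in 9 of 35 members before the start only, against 14. Quantile normalization turned Prim1 to -0.0023 and Lig1 to 0.0011.

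With libraries left out, log2 fold changes that changed sign in at least 1 case ranged as follows: Orc1 -0.19 to 0.12, Orc2 -0.030 to 0.068, Orc5 -0.067 to 0.067, Cdt1 -0.013 to 0.073, Gmnn -0.095 to 0.067, Mcm2 -0.075 to 0.067, Mcm3 -0.086 to 0.077, Mcm4 -0.014 to 0.086, Mcm5 -0.058 to 0.090, Mcm7 -0.086 to 0.068, Mcm10 -0.024 to 0.17, Gins2 -0.13 to 0.13, Gins3 -0.081 to 0.13, Gins4 -0.067 to 0.088, Pcna -0.064 to 0.14, Rfc1 -0.057 to 0.022, Rfc2 -0.025 to 0.044, Rfc4 -0.12 to 0.20, Rfc5 -0.087 to 0.098, Pola1 -0.068 to 0.17, Pola2 -0.056 to 0.022, Prim1 -0.047 to 0.026, Prim2 -0.073 to 0.15, Pole -0.0035 to 0.13, Rpa1 -0.035 to 0.14, Rpa2 -0.098 to 0.070, Rpa3 -0.023 to 0.12, Fen1 -0.033 to 0.11, Lig1 -0.13 to 0.033, Tyms -0.12 to 0.21. These ranges and those of the ratios include the omission of both wild-type replicate 4 and PROSER1 KO replicate 2, chosen after seeing the data. Cdt1, Mcm4, Mcm10, Pcna, Pole, Rpa1, Rpa3 and Fen1 changed sign only in that case. With 1 library left out, Orc1 for example ran from -0.097 to 0.12. The log2 ratio differences ranged for Cdt1 to Gmnn -0.052 to 0.082, Rrm2 to Rrm1 -0.024 to 0.059 and Orc1 to Orc2 -0.16 to 0.056. Same-numbered libraries deviated with correlations of 0.023, 0.058 and -0.11, and differently numbered ones with -0.13 to 0.14. These values show no pairing by number, but with 4 and 3 libraries they cannot exclude it. The replicate block, in which wild-type replicate 4 has no partner and drops out of the contrast, gave 35 called genes, 0 called members and opposite signs for 14 members: Orc1 -0.097, Orc2 -0.0046, Orc5 -0.0048, Gmnn -0.021, Mcm2 -0.022, Mcm3 -0.020, Mcm7 -0.026, Gins2 -0.039, Gins4 -0.012, Rfc1 -0.033, Rfc4 -0.016, Prim1 -0.016, Rpa2 -0.016, Tyms -1.5e-05.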
